A study of Mus musculus with 2 samples.

Results

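The clustered replication histone genes were described in 2 single-cell RNA libraries of mouse digit cells. The members were chosen by symbol alone: *H1f1* to *H1f5*, and every gene whose symbol starts with *H2ac*, *H2bc*, *H3c* or *H4c* followed by a number. Of 33696 genes listed, 67 matched, and the 61 with at least 10 UMIs over both libraries were kept. A UMI (unique molecular identifier) marks 1 captured transcript, so that its PCR copies are counted once. The members that fell below the minimum were *H2bc26-ps* with 5 UMIs, *H2bc1* with 1, and *H4c17*, *H2bc23*, *H2ac19* and *H2ac1* with none.

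These genes make the histones that package newly replicated DNA. H2A, H2B, H3 and H4 form the protein core of the nucleosome, and H1 binds the linker DNA between nucleosomes. Their transcription is tied to S phase, when chromatin is copied, and most of their mRNAs end in a conserved stem-loop in place of a poly(A) tail. The stem-loop is bound by SLBP, which takes part in the processing, translation and decay of the mRNA. The libraries were made with a 3′ method that captures RNA through poly(A) sequence, so the counts here are of the replication histone RNA that this capture retained, and levels are not per length.

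Both libraries came from ICR mice whose hindlimb digits were amputated through the middle phalanx on postnatal day 3. On postnatal day 7 each wound received an agarose bead carrying FGF8 at 500 ng/µl or, as the control, 0.1% BSA, and tissue was taken 24 h later on postnatal day 8 after removal of the epithelium. Each library pooled 20 digits of 5 mice, males and females together, and by the study's methods the FGF8 pool may include digits that would not have regenerated. Each condition is a single library, so nothing could be tested across samples: no p-value is given, all intervals are 95% intervals that cover counting error only, and treatment, animals, dissection and library cannot be told apart. For levels and ratios these intervals take each UMI as a separate draw. They leave out the spread from cell to cell, and so are too narrow where few cells hold most member UMIs.

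Each library was a single count matrix. The BSA library held 3703 barcodes and 67739460 UMIs, and the FGF8 library 7249 barcodes and 124889213 UMIs. Cells with over 200 and under 7500 detected genes and a mitochondrial share under 15%, the study's filter against empty and doublet captures, were kept, 3252 for BSA and 6715 for FGF8, and 6 barcode sequences occurred in both libraries. Female-called cells, with a UMI of *Xist* and none of 4 Y-linked genes, were 79.3% of the sex-called cells in BSA and 24.6% in FGF8. The cells fell into 10 clusters named from marker lists, and the largest, called fibroblast-like, held 1859 BSA and 3587 FGF8 cells. All 9 of its fibroblast markers were detected, with *Mfap4*, *Mfap5*, *Dpt* and *Pdgfra* among its leading genes.

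The upper gene limit bears on every level below. The 161 BSA and 274 FGF8 barcodes at or over 7500 genes held 34.2% of all member UMIs in the BSA library and 16.1% in the FGF8 library, although they held a like share of all UMIs, 18.0% and 17.0%. Their member level, in member UMIs per 1000000 UMIs (CPM), was 2594 CPM in BSA and 1368 CPM in FGF8. Over all barcodes the members stood at 1368 CPM in BSA and 1440 CPM in FGF8, a log2 ratio of 0.07 (0.06 to 0.09), against 1118 and 1457 CPM in the kept cells, a log2 ratio of 0.38 (0.37 to 0.40). Results are therefore also given with these barcodes put back, each under the cell type whose profile fitted its counts best, a choice made after seeing the data. The rule gave the clustered type to 97.3% of kept BSA cells and 97.1% of kept FGF8 cells with at least 30000 UMIs. Whether such barcodes held more than 1 cell was not tested.

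The members' own sequences show what sets these RNAs apart. The pattern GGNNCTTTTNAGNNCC, a stem of 6 paired bases closed by a loop of 4, was searched on the gene's strand within 200 bases after the stop codon on GRCm39, and was found in 57 of the 61 members, 21 to 58 bases past the stop codon. All 5 H1 genes, 13 H2A, 12 H2B and 8 H3 genes carried the form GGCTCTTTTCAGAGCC. The form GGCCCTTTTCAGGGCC was found in 7 of the H4 genes and in no other family. *H2bc21*, *H2ac22*, *H3c8* and *H4c1* had no match in this window. The site of 1 member for each of the 5 families is given here with the 16 pattern bases in capitals, read 5′ to 3′ on the strand of the gene, with *H2bc4* and *H1f5* included because their capitals are identical while their behaviour across the cell cycle differed most among the abundant members.
H1f5, chr13:21964002-21964027, minus strand: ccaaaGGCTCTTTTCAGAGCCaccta
H2ac8, chr13:23754837-23754862, minus strand: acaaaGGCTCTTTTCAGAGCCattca
H2bc4, chr13:23868625-23868650, plus strand: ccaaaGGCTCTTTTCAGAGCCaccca
H3c3, chr13:23929025-23929050, minus strand: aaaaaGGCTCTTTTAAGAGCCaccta
H4c4, chr13:23765928-23765953, plus strand: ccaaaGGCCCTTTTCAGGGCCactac

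The linker histones supplied most of the counts. H1 genes held 51.2% of the 61 members' UMIs, H2A genes 20.2%, H2B genes 10.0%, H4 genes 9.72% and H3 genes 8.89%. *H1f5* alone had 73572 UMIs over both libraries, *H1f4* 42937, the H2A gene *H2ac8* 20024, the H4 gene *H4c4* 17147 and the H2B gene *H2bc4* 12608. *H1f2* followed with 11578, the H3 gene *H3c3* with 10156, *H2ac20* with 8194, *H2ac24* with 6586, *H1f1* with 6535, *H3c6* with 5758 and *H2ac4* with 5608. Many members are near copies of each other: in 23 of the 61, over 50% of the 90-base windows of the annotated transcripts also occurred in another member, so the split of reads between such genes is uncertain. *H1f5* and *H1f1* shared none of their windows, *H4c4* 0.86% and *H2bc4* 8.32%, against 92.4% for *H2ac24*.

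Across cell types the summed level varied more than it did between the libraries. In the BSA library it was highest in Schwann-like cells at 2383 CPM (2318 to 2449), followed by smooth muscle or pericyte-like cells at 1778 CPM and endothelial-like cells at 1409 CPM. Mast-like, keratinocyte-like and fibroblast-like cells lay at 1286, 1136 and 1089 CPM, macrophage-like cells at 875 CPM and neutrophil-like cells at 665 CPM. The lowest levels were in chondrocyte-like cells, 369 CPM, and erythroid-like cells, 249 CPM, and both stood lowest in FGF8 too, at 471 and 255 CPM. The intervals of mast-like and endothelial-like cells in BSA, 1166 to 1414 and 1355 to 1465 CPM, overlapped, and so did those of mast-like and keratinocyte-like cells in BSA.

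**Figure D1:**
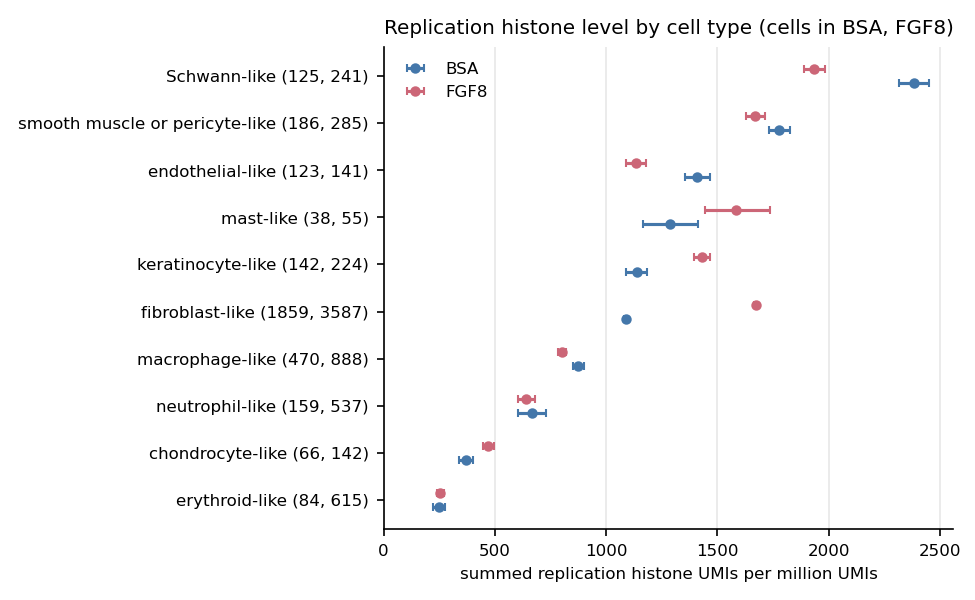
Summed CPM of the 61 members (x axis) in each of the 10 cell types (y axis, with cell numbers for BSA and FGF8), as points with exact Poisson 95% intervals for counting error, BSA in blue and FGF8 in red. Fibroblast-like cells stand at 1089 CPM in BSA and 1675 CPM in FGF8, and Schwann-like cells at 2383 and 1936 CPM.

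The make-up of the sum was alike in most cell types, with *H1f5* or *H1f4* as the leading member in 9 of the 10. In chondrocyte-like cells of FGF8 *H2bc4*, with 226 UMIs, stood between *H1f4* with 388 and *H1f5* with 220. In neutrophil-like cells *H2bc4*, an H2B gene, led with 30.9% of member UMIs in BSA and 28.5% in FGF8, at 206 and 182 CPM, its highest level in any cell type. In fibroblast-like cells *H2bc4* stood at 49.5 CPM in BSA and 75.5 CPM in FGF8. With each cell thinned to 2000 UMIs, *H2bc4* was found in 39.6% of 149 neutrophil-like cells in BSA and 30.4% of 404 in FGF8, against 7.80% of 1642 and 10.7% of 3182 fibroblast-like cells and 1.28% of 78 and 2.29% of 481 erythroid-like cells. The same thinning gave *H1f5* in 2.01% and 10.4% of the neutrophil-like cells.

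In fibroblast-like cells, the most abundant cells of both libraries, the members were higher in the FGF8 library. The sum was 38846 UMIs, or 1089 CPM, in BSA and 117392 UMIs, or 1675 CPM, in FGF8, a log2 ratio of 0.62 (0.60 to 0.64) or 1.54-fold. Of the 61 members, 58 had a ratio above 0, against 44.2% of the 20111 genes tested, and their median log2 ratio was 0.49 beside -0.07 for all genes. The counting interval lay above 0 for 41 members, held 0 for 20 and lay below 0 for none. Of the 61, 7 exceeded a log2 ratio of 1, beside 6.63% of all genes, and none lay below -1, beside 5.06% of all genes. With the barcodes of 7500 or more genes put back, the sum was 1393 CPM in BSA and 1643 CPM in FGF8, a log2 ratio of 0.24 (0.22 to 0.25). Then the members' median was 0.19, 42 members lay above 0, beside 44.4% of all genes, 27 intervals lay above 0 and 6 below. For the counts of intervals, with and without the limit, the share over all genes was not counted.

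In each family most or all members leaned the same way in the kept fibroblast-like cells. The 5 H1 genes had log2 ratios between 0.47 and 0.91 with a median of 0.53. The medians were 0.40 for 16 H2A genes, 0.68 for 16 H2B genes and 0.36 for 12 H3 genes, with none below 0. H4 was the only family with members below 0, 3 of 12, at a median of 0.50. This depended on the gene limit: without it, 19 of the 61 members lay below 0. They were H2A, H3 and H4 genes, such as *H2ac22* at -0.32, *H3c3* at -0.21 and *H4c3* at -0.37, with no H1 or H2B gene among them.

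Among the H1 genes, *H1f5* stood at 265 CPM in BSA and 497 CPM in FGF8, a log2 ratio of 0.91 (0.87 to 0.94). *H1f4* had 181 and 251 CPM, a log2 ratio of 0.47 (0.43 to 0.51). *H1f1* stood at 25.5 and 43.6 CPM, a log2 ratio of 0.78 (0.67 to 0.88). All 3 were higher in FGF8 beyond counting error, *H1f5* the most. With the barcodes of 7500 or more genes put back their log2 ratios were lower, 0.41 for *H1f5* and 0.15 for *H1f4*.

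The core histone genes with the most UMIs had ratios below that of *H1f5*. *H2ac8* stood at 85.2 CPM in BSA and 119 CPM in FGF8, a log2 ratio of 0.49 (0.43 to 0.55). *H4c4* stood at 76.9 and 107 CPM, a log2 ratio of 0.48 (0.42 to 0.55). *H2bc4* stood at 49.5 and 75.5 CPM, a log2 ratio of 0.61 (0.53 to 0.69). All 3 were higher in FGF8 beyond counting error, but without the gene limit the log2 ratios were 0.058 for *H2ac8*, 0.15 for *H4c4* and 0.54 for *H2bc4*. *H3c3* stood at 49.6 and 56.6 CPM, a log2 ratio of 0.19 (0.11 to 0.27). For *H3c3* the direction depended on the gene limit: without it the log2 ratio was -0.21 (-0.28 to -0.14). *H2ac20*, *H2ac22*, *H2ac10*, *H4c3* and *H2ac4* likewise had intervals below 0 without the limit.

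The 4 highest ratios among members with at least 100 UMIs in fibroblast-like cells were held by core histone genes of modest level. *H2ac24* had 501 UMIs, 14.0 CPM, in BSA and 3298 UMIs, 47.0 CPM, in FGF8, a log2 ratio of 1.74 (1.61 to 1.88). *H4c18* had 35 and 211 UMIs, a log2 ratio of 1.62 (1.10 to 2.18). *H4c9* had 309 and 1692 UMIs, a log2 ratio of 1.48 (1.30 to 1.66), and *H3c4* had 83 and 377, a log2 ratio of 1.21 (0.86 to 1.57). Of these, *H2ac24*, *H4c9* and *H3c4* stayed above 1 without the gene limit, at 1.30, 1.26 and 1.05.

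*H2ac24*, *H4c18* and *H2bc24* lie side by side on chromosome 13, between bases 22015937 and 22017911 at their starts, and *H2bc24* had a log2 ratio of 1.57 on 12 and 70 UMIs. Windows of 90 bases shared with other members made up 92.4% of *H2ac24*, 81.2% of *H4c18* and 87.4% of *H2bc24*. *H2ac23*, a near copy of *H2ac24*, had 12 and 26 UMIs and a log2 ratio of 0.14 (-0.90 to 1.26). *H2ac24* was also the member with the highest ratio outside fibroblast-like cells among members with over 1000 UMIs, 0.57 (0.38 to 0.76) over all other kept cells. By CPM *H2ac24* was higher in FGF8 in 9 of the 10 cell types, the exception being chondrocyte-like cells with 11 UMIs in each library. In cells thinned as for *H2bc4* above, the share with *H2ac24* was lower in FGF8 than in BSA in some types. It was 5.51% against 5.88% in Schwann-like, 5.30% against 5.98% in endothelial-like and 0.62% against 1.28% in erythroid-like cells. In all other types it was higher in FGF8. Outside fibroblast-like cells these BSA shares rest on at most 7 cells with *H2ac24* per type.

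The 4 lowest ratios were near 0. *H4c3* had 97 UMIs in BSA and 170 in FGF8, a log2 ratio of -0.16 (-0.53 to 0.21). *H4c16* had 131 and 243 UMIs at -0.08, and *H4c14* had 83 and 162 at -0.01. *H2ac25* had 559 and 1103 UMIs, 15.7 CPM in each library, and a log2 ratio of 0.01 (-0.14 to 0.16). The intervals of these 4 all held 0.

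The position of a member on the chromosomes went with its ratio as a description. The 21 members between chr13:21899933 and chr13:22227846 had a median log2 ratio of 0.77 with all 21 above 0, and the 28 between chr13:23715220 and chr13:23948389 a median of 0.50 with 27 above 0. The 9 members on chromosome 3 had a median of 0.31. The 2 on chromosome 11, *H2bc27* and *H2ac25*, had 0.16 and 0.01, and the single member on chromosome 6 was *H4c16*.

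**Figure D2:**
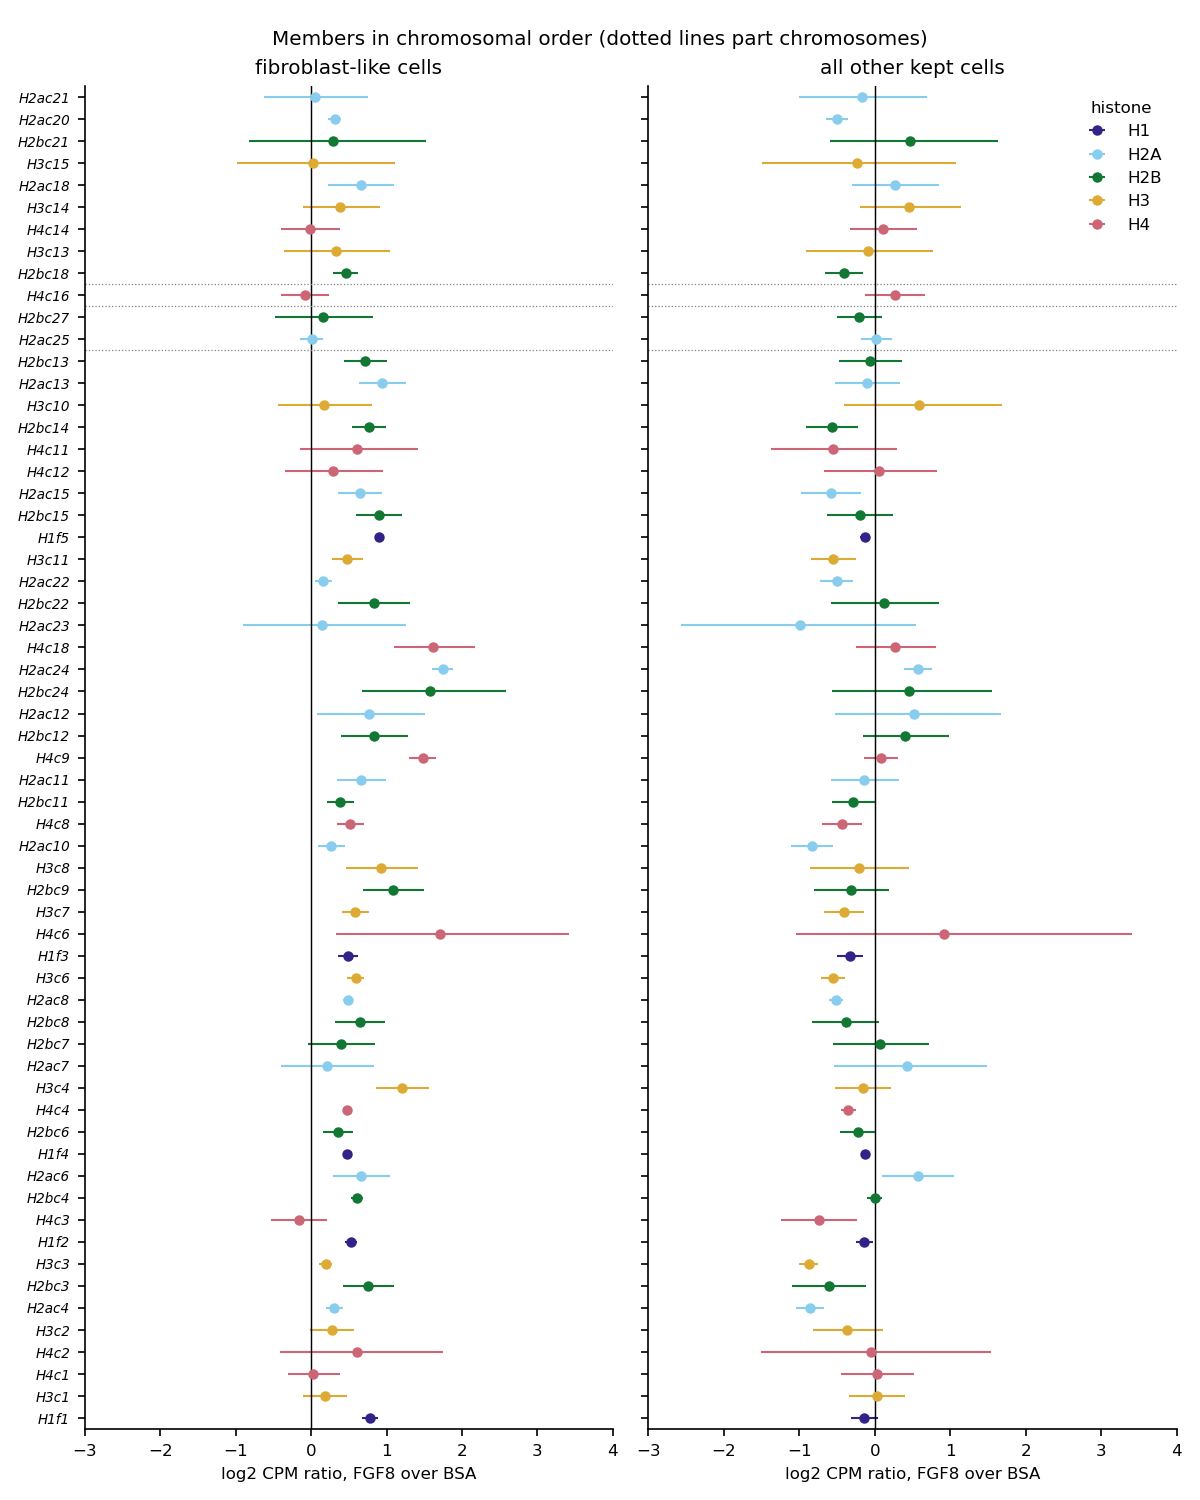
Log2 ratio of CPM, FGF8 over BSA, for each of the 61 members in chromosomal order (y axis) in fibroblast-like cells (left) and in all other kept cells (right), as points coloured by histone with exact conditional 95% intervals for counting error. In fibroblast-like cells 58 points lie right of 0, and in the other cells, a pool whose mix of cell types differed between the libraries, 21 do.

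Outside fibroblast-like cells the members did not share this direction. Over all other kept cells 21 of the 61 lay above 0, beside 36.3% of the 19543 genes tested, none above 1, beside 4.21%, and their median was -0.14. The share above 0 was thus near that of all genes. This pool also differed in make-up: erythroid-like cells were 84 in BSA and 615 in FGF8, and neutrophil-like cells 159 and 537. How this mix bore on the pooled ratios was not tested. The sum was lower in FGF8 in Schwann-like cells, at 2383 and 1936 CPM, a log2 ratio of -0.30 (-0.35 to -0.25), and in endothelial-like cells, at 1409 and 1135 CPM, a log2 ratio of -0.31 (-0.39 to -0.23). Smaller differences of the same sign were found in macrophage-like cells, -0.13, and smooth muscle or pericyte-like cells, -0.09. Keratinocyte-like, mast-like and chondrocyte-like cells were higher in FGF8, at 0.33, 0.30 and 0.35. Several of these signs depended on the cells used: under a stricter filter, with a limit of 6000 genes, the ratio was 0.34 in Schwann-like and 0.29 in smooth muscle or pericyte-like cells, and in cells thinned to 2000 UMIs it was -0.01 in keratinocyte-like cells. The stricter filter gave 0.031 in mast-like and 1.03 in chondrocyte-like cells. Without the gene limit Schwann-like cells had -0.77, on 9 BSA and 2 FGF8 barcodes added, and endothelial-like cells -0.63, on 21 and 38 added. Keratinocyte-like cells had 0.045 (-0.017 to 0.108) and macrophage-like cells -0.048 without the limit, both with intervals that held 0. Across the 43 members with at least 100 UMIs in both cell sets, ratios in fibroblast-like and other cells had Pearson's r of 0.38 and Spearman's rho of 0.29, over genes that share 2 libraries and are not independent.

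Genes that act with replication histones were read from lists chosen by function. Of 43 S phase genes 42 lay above 0 in fibroblast-like cells with a median log2 ratio of 0.59, and of 54 G2/M phase genes 53 did, with a median of 1.24 and 38 above 1. How the members' median of 0.49 stood to that of the S list depended on the cells used: it was 0.19 beside 0.51 without the gene limit, 0.46 beside 0.81 under a stricter filter, and 0.66 beside 0.46 in male-called cells. Of 17 histone chaperone genes 15 lay above 0, with a median of 0.42, and of 11 replacement histone genes, which are expressed outside S phase too, 9 did, with a median of 0.40. The 14 genes of histone mRNA processing had a median of 0.22, with 11 above 0 and none above 1.

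Single genes of these lists spread widely. *Slbp*, which encodes the stem-loop binding protein, stood at 49.4 CPM in BSA and 65.5 CPM in FGF8, a log2 ratio of 0.41 (0.33 to 0.49). *Npat*, the activator of histone gene transcription, was at 23.8 and 24.3 CPM, a log2 ratio of 0.03 (-0.09 to 0.15), and *Casp8ap2*, needed for histone gene expression, was at 0.15. *Lsm11*, a part of the U7 particle that cuts histone pre-mRNA, was at 0.66 on 253 and 783 UMIs.

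The chaperone *Asf1b* had a log2 ratio of 1.30, *Chaf1b* of the CAF-1 complex 0.82, the histone acetyltransferase *Hat1* 0.78 and the H3 and H4 binding *Nasp* 0.72. Of the replacement histones, *H2az1* stood at 645 and 1338 CPM, a log2 ratio of 1.05, and *H2ax* reached 1.26. The centromeric *Cenpa* had 1.74, the linker histones *H1f10* and *H1f0* had 0.24 and 0.07, and the H3.3 genes *H3f3b* and *H3f3a* had 0.48 and -0.08. For reference, *Pcna* of the replication fork had 0.54 and the proliferation marker *Mki67* 1.18.

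Cells were next divided by cell cycle class, called from the S and G2/M lists, which hold no member, after thinning each cell to 5000 UMIs. Fibroblast-like cells of BSA were 1195 G1-called (79.8%), 179 S-called (11.9%) and 124 G2/M-called (8.28%). Those of FGF8 were 1614 (55.0%), 536 (18.3%) and 786 (26.8%). A further 361 BSA and 651 FGF8 fibroblast-like cells with under 5000 UMIs were left out, and 7.01% and 10.9% of the classed cells had a score within 0.02 of a threshold.

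The member level was higher in each later class in both libraries. In BSA it was 249 CPM in G1-called, 1332 CPM in S-called and 5979 CPM in G2/M-called cells, and in FGF8 it was 310, 1920 and 3029 CPM. S-called over G1-called, the members' median log2 ratio was 2.50 in BSA and 2.73 in FGF8. In each library 51 of the 61 exceeded 1, beside 6.81% of all genes in BSA and 6.29% in FGF8. Ratios above 3 were held by 27 members in BSA, beside 1.28% of all genes, and by 26 in FGF8, beside 0.953%. G2/M-called over G1-called, the medians were 4.55 and 3.49, with 59 members above 1 in BSA, beside 8.37% of all genes, and 55 in FGF8, beside 6.83%.

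By the mean of both libraries, the highest S-over-G1 ratios were held by *H2ac22*, *H1f5*, *H2ac10* and *H3c2*. *H1f5* stood at 6.18 CPM in G1-called, 371 CPM in S-called and 1740 CPM in G2/M-called cells of BSA, and at 15.3, 637 and 946 CPM in FGF8. Its S-over-G1 log2 ratio was 5.91 (5.67 to 6.15) in BSA and 5.38 (5.24 to 5.52) in FGF8. *H2ac22* had 6.29 and 5.17, *H2ac10* 6.58 on 57 over 3 UMIs and 3.98, and *H3c2* 6.29 on 31 over 2 UMIs and 4.19. The order differed between the libraries: in FGF8 *H2ac24* at 5.24 and *H1f1* at 4.93 stood above *H2ac10* and *H3c2*. Each of these 4 had a G1-called level far below its S-called level in both libraries.

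The lowest ratios belonged to members found in cells of every class. *H2ac25* was lower in S-called than in G1-called cells, at 7.64 against 17.2 CPM in BSA and 8.74 against 17.6 CPM in FGF8, log2 ratios of -1.17 (-1.69 to -0.70) and -1.01 (-1.29 to -0.73). *H2bc4* stood at 44.1 CPM in G1-called and 30.2 CPM in S-called cells of BSA, a log2 ratio of -0.55 (-0.80 to -0.30), and at 65.8 and 64.4 CPM in FGF8, -0.03 (-0.15 to 0.08). *H4c14* had -0.40 in BSA, on 6 S-called and 40 G1-called UMIs, and -0.22 in FGF8, with intervals that held 0. *H2ac18* had -0.94 in BSA, on 3 S-called and 29 G1-called UMIs with an interval that held 0, and 1.23 (0.51 to 1.97) in FGF8. *H1f2* was higher in S-called cells by less than most members, at 0.46 (0.23 to 0.68) and 0.83 (0.70 to 0.96).

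The members that made up the sum changed accordingly. In G1-called cells *H1f4* held 26.8% of member UMIs in BSA and 23.4% in FGF8, and *H2bc4* 17.7% and 21.3%, with *H1f2* next. In S-called cells *H1f5* led with 27.9% and 33.2%, followed by *H1f4* and *H2ac8*. H2B genes held 22.5% and 25.9% of member UMIs in G1-called cells and 7.60% and 8.17% in S-called cells, whereas H3 genes held 4.66% and 5.03%, and 10.0% and 7.59%.

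This spread went with the annotated end of the gene. In 27 members with at least 100 UMIs in fibroblast-like cells, the annotation ended within 100 bases of the stem-loop, and their median S-over-G1 log2 ratio was 4.12 in BSA and 3.47 in FGF8, with 1 member, *H2ac18*, at a mean below 1. In 21 members the annotation ran over 100 bases past it, and the medians were 1.54 and 1.77, with 7 members at a mean below 1. The second set includes *H2ac25*, *H2bc4*, *H4c14*, *H4c16*, *H4c3* and *H1f2*, and their annotated bases past the stem-loop were 1643 for *H2ac25*, 1257 for *H4c14* and 840 for *H1f2*, counted on the genome. It also includes 4 members with a mean above 3. These were *H2ac8*, 151 bases past, at 4.67 and 4.50, and *H1f3*, 4884 bases past, at 3.79 and 3.77. *H2bc3*, 678 bases past, had 3.92 and 3.95, and *H2bc22*, 1283 bases past, had 4.07 (on 10 over 3 UMIs) and 3.54. The capitals of the stem-loop printed above are the same in *H1f5*, *H2ac8* and *H2bc4*. The FGF8-over-BSA ratio in all fibroblast-like cells did not follow this division, with medians of 0.52 and 0.53. *H2ac24* holds a run of 12 A bases in its annotated transcript and *H1f5* 6; priming at such runs was not tested.

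**Figure D3:**
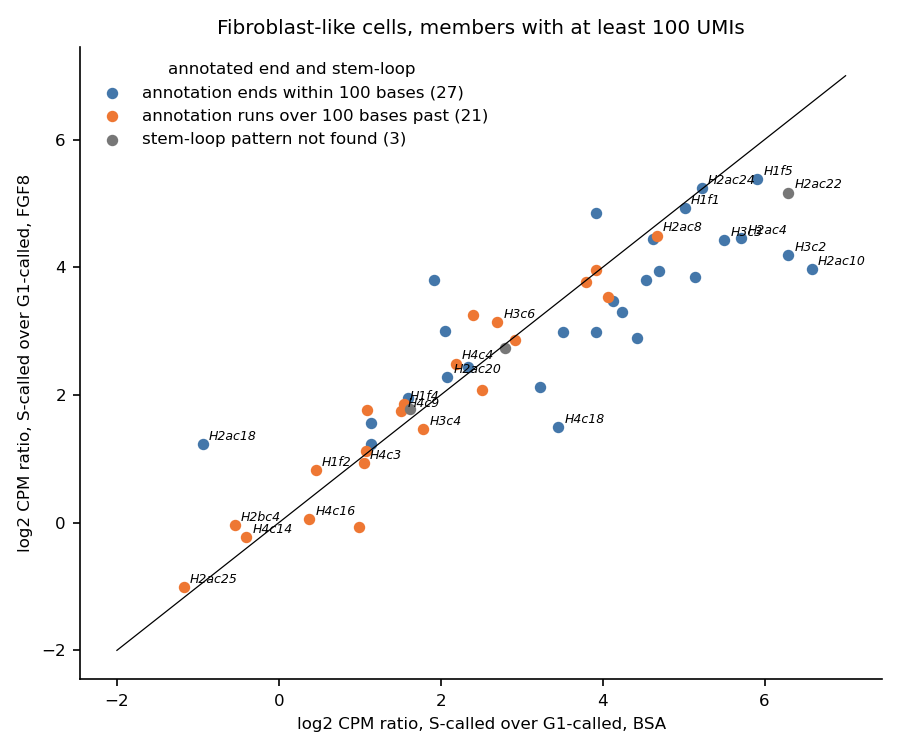
Log2 ratio of CPM in S-called over G1-called fibroblast-like cells for the 51 members with at least 100 UMIs, BSA on the x axis and FGF8 on the y axis, coloured by where the annotated gene ends relative to the stem-loop, with the line of equality. Members whose annotation ends within 100 bases lie mostly at the upper right (medians 4.12 and 3.47), and the lowest point in both libraries is *H2ac25*.

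The other genes of histone supply gave values on the same scale. *Asf1b* and *Chaf1b* had S-over-G1 log2 ratios of 5.24 and 4.42 in BSA and 4.66 and 3.96 in FGF8, and *Slbp* 1.95 and 1.69. The replacement genes *H3f3a* and *H3f3b* were level, at -0.00 and -0.05 in BSA and -0.15 and 0.19 in FGF8, and *H1f0* was lower in S-called cells, at -0.76 and -0.44. *Pcna* had 2.68 and 2.28 and *Mki67* 3.99 and 2.97.

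Within the classes the comparison of the libraries changed. The summed log2 ratio of FGF8 over BSA was 0.31 (0.27 to 0.36) in G1-called and 0.53 (0.49 to 0.57) in S-called cells, but -0.98 in G2/M-called cells, with an interval that ended at -0.96. In G1-called cells 43 of the 61 members lay above 0, beside 51.2% of all genes, and in S-called cells 40 did, beside 44%. In G2/M-called cells 55 of the 61 members were lower in FGF8, beside 58.1% of all genes, and 29 lay below -1, beside 9.2%. *H1f5* went from 1740 to 946 CPM there, *H2ac8* from 562 to 224 CPM and *H3c3* from 318 to 111 CPM. *H2ac24*, at 95.9 and 90.3 CPM, and *H2ac25*, at 16.5 and 18.0 CPM, had intervals that held 0. Median depth in BSA and FGF8 was 33716 and 32852 UMIs per G2/M-called cell. It was 27966 and 27986.5 per S-called cell and 20412 and 15608.5 per G1-called cell. The part of depth in these ratios was not tested. The S-called ratio changed sign with the cells used: it was -0.03 without the gene limit and -0.37 under a stricter filter with a limit of 6000 genes. Among cells of 1 called sex it was 0.08 for female and 1.43 for male. The G2/M-called ratio was -1.03 without the gene limit, and -0.05 when classes were called from list UMI counts. That rule put 518 BSA and 1640 FGF8 cells in the G2/M class.

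**Figure D4:**
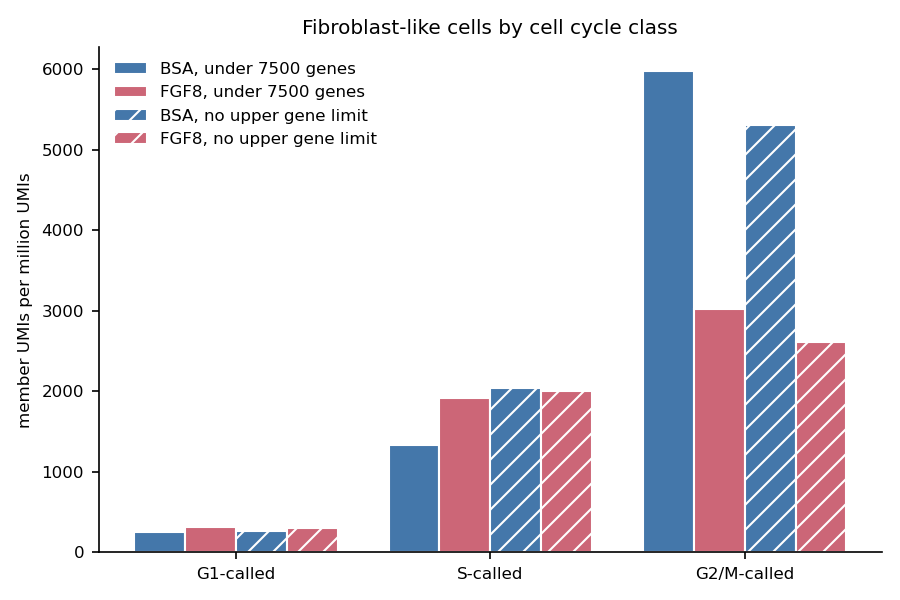
Member CPM (y axis, from 0) in G1-called, S-called and G2/M-called fibroblast-like cells of BSA (blue) and FGF8 (red), for cells under 7500 genes (plain) and with no upper gene limit (hatched); bars are single pooled values, 1 library each. The G2/M-called bars are 5979 CPM for BSA and 3029 CPM for FGF8 in the kept cells.

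The classes were loose containers for these RNAs. Most member UMIs lay in cells that were high on both lists at the same time: cells with at least 10 S and at least 20 G2/M list UMIs of 5000 were 91 of 1498 in BSA, 6.07% (4.92 to 7.41), and held 65.9% of member UMIs. In FGF8 they were 533 of 2936, 18.2% (16.8 to 19.6), and held 67.7%. Their mean was 45.5 member UMIs per cell in BSA and 24.2 in FGF8. Cells with 10 or more S but fewer than 20 G2/M list UMIs had means of 1.98 and 4.08, beside 1.31 and 1.62 in cells low on both. Cells with 20 or more G2/M but fewer than 10 S list UMIs had 5.83 and 6.40. When classes were called from list UMI counts, S-called took cells with at least 5 S list UMIs and more S than G2/M UMIs. G1-called then took cells with at most 2 list UMIs, which left 85 BSA and 49 FGF8 cells. With these other classes, the members' median S-over-G1 log2 ratio was 0.48 in BSA and 0.03 in FGF8.

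**Figure D5:**
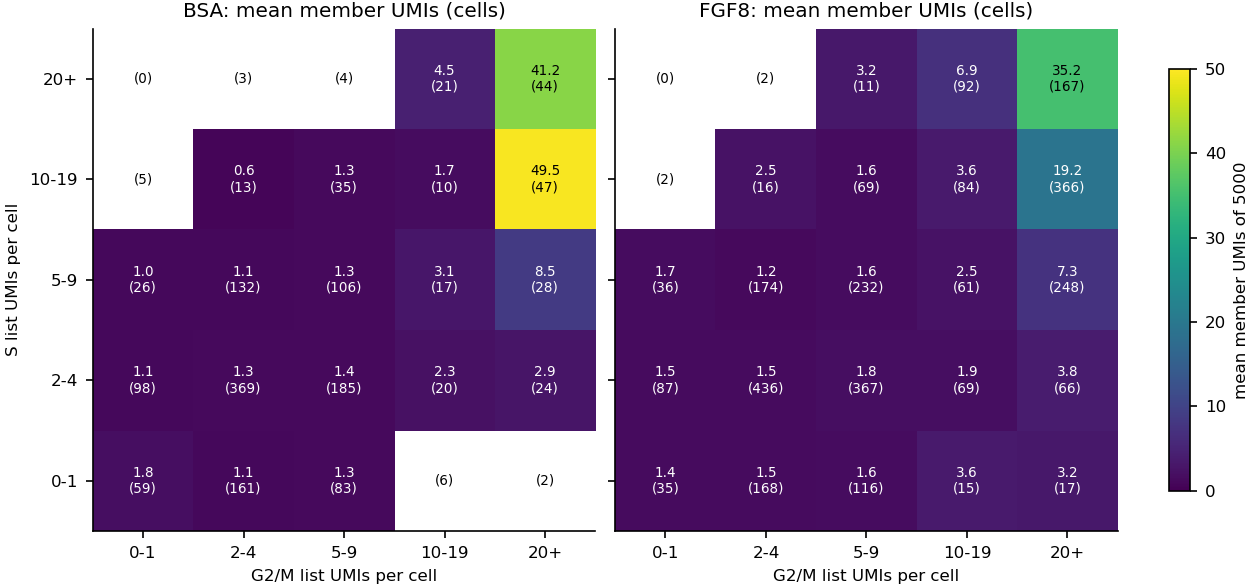
Mean member UMIs per fibroblast-like cell thinned to 5000 UMIs (colour and upper number), by UMIs of the G2/M list (x axis) and of the S list (y axis) in that cell, for BSA (left) and FGF8 (right), with cell numbers in brackets; means are shown for bins of at least 10 cells. The highest means, 49.5 in BSA and 35.2 in FGF8, stand in the column of 20 or more G2/M list UMIs.

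Cells rich in these RNAs were more frequent in FGF8 but held fewer of them each. Of the thinned fibroblast-like cells, 65 of 1498 in BSA, 4.34% (3.36 to 5.50), and 262 of 2936 in FGF8, 8.92% (7.92 to 10.0), had at least 20 member UMIs of 5000. Their mean was 64.0 in BSA and 48.2 in FGF8, and they held 66.2% of member UMIs in each library. In erythroid-like cells the share at this level was 1.41% of 71 and 0.54% of 367, and among neutrophil-like cells none of 14 and none of 38 reached it, which allows shares up to 23.2% and 9.25% by the exact binomial interval. Without the gene limit the fibroblast-like shares were 5.64% (4.57 to 6.88) and 9.05% (8.07 to 10.1).

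In the rich cells a minority of members made up different shares in the 2 libraries beyond counting error, and most members had intervals that held 0. *H2ac24* supplied 56 of their member UMIs in BSA and 391 in FGF8, a log2 ratio of shares of 1.20 (0.80 to 1.63), and was found in 53.8% and 70.6% of them. *H1f5* made up 30.7% and 35.4%, a log2 ratio of 0.20 (0.11 to 0.30). *H2ac8* made up 9.71% and 8.19%, *H3c3* 5.36% and 3.71%, *H2ac4* 2.84% and 2.05%, and *H2ac22* 2.69% and 1.93%. Each was lower in FGF8 beyond counting error. *H1f4*, with a log2 ratio of shares of -0.07, and *H4c4*, at 6.11% and 6.01%, had intervals that held 0.

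At a finer clustering, resolution 0.2, most member UMIs lay in 1 cluster led by *Prg4*, *Ptgis* and *Timp1*, with *Hmmr* and *Birc5* of the mitotic genes also among its leading genes. It held 32.7% of the BSA and 44.0% of the FGF8 fibroblast-like cells, and 82.7% and 88.7% of their member UMIs. Its level was 1896 and 2193 CPM, a log2 ratio of 0.21 (0.19 to 0.23). At this resolution the naming rule left the cluster unnamed, with under 3 detected markers of its best-scoring list, osteoblast. The cluster with the most BSA cells, led by *Dpep1* and *Cpz*, stood at 308 and 557 CPM, a log2 ratio of 0.85 (0.80 to 0.90). A cluster led by *Corin* and *Alx4*, of 39 BSA and 80 FGF8 cells, had the opposite sign, at 1013 and 601 CPM.

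The promoters of the H2A and H2B genes were looked up because these genes often lie head to head. In RefSeq promoters of 300 bases (250 before to 50 after the start, GRCm38.p6), 57 of the 67 symbols matched. Among them, and among the genes with the octamer, are *H2bc1* and *H2ac1*, which fell below the UMI minimum. The octamer ATTTGCAT, searched on both strands, was present in 7 of 14 H2B and 6 of 17 H2A genes and in no H1, H3 or H4 gene, against 1.97% of 27025 genes. CCAAT was present in every H1, H2A, H2B and H3 gene matched but in 3 of 11 H4 genes, against 41.1% of all genes, and TATAAA in 59.6% of the 57 matched symbols against 15.7%. The promoters of *H2ac8* and *H2bc8*, and those of *H2ac12* and *H2bc12*, hold 1 shared octamer read from opposite strands, shown in capitals.
H2ac8, chr13:23571330-23571359, minus strand: atagaggttctATGCAAATaagggactcaa
H2bc8, chr13:23571330-23571359, plus strand: ttgagtcccttATTTGCATagaacctctat
H2ac12, chr13:22035780-22035809, minus strand: tagaacttcgtATGCAAATaaagtgaaatg
H2bc12, chr13:22035780-22035809, plus strand: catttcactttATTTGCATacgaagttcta

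Genes of such a pair differed in UMI count. The counting intervals of their ratios overlapped, but all except that of *H2ac8* were wide, so the overlap does not set the pairs apart from other members. *H2ac8* had 20024 UMIs over both libraries and *H2bc8* 755, and their log2 ratios of FGF8 over BSA in fibroblast-like cells were 0.49 (0.43 to 0.55) and 0.64 (0.31 to 0.99). *H2ac12* had 176 UMIs and *H2bc12* 522, and their log2 ratios were 0.77 (0.08 to 1.51) and 0.83 (0.40 to 1.29). Windows shared with other members made up 89.6% of *H2ac12* and 71.6% of *H2bc12*.

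The sex of the cells changed the size of the fibroblast-like difference and not its sign. Female-called cells gave a summed log2 ratio of 0.56, and male-called cells 0.78. The libraries differed in sex make-up, so each sex was compared with itself.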

How the data were processed

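Single-cell RNA was measured in 2 libraries, 1 for FGF8 and 1 for BSA. The deposited values are raw UMI counts per gene and barcode, which the authors made with Cell Ranger 9.0.0 on GRCm39, without normalization, for barcodes called as cells. The submitters' processing notes also list mm10 without a role. Cells were filtered as the study's methods state. Alternatives changed the filters, clustering, depth, weighting, scaling, sex of cells and phase rule. Clustering ran in R 4.3.3 (Seurat 5.3.0, sctransform 0.4.2; SCTransform, CCA, 30 components, resolution 0.05, seed 42) on 2984 of 3000 variable genes, leaving out the 16 members among them. Cell types were named anew from marker lists and can differ from those of the study. Phases were called with Seurat's CellCycleScoring. Python 3.11.15 (pandas 2.3.3, scipy 1.17.1, numpy 2.4.6) gave sums, CPM and intervals: exact conditional intervals for ratios, exact Poisson for sums and Clopper-Pearson for shares. Where a group had no UMI of a gene, 3 counts stood in for it, which gives a bound. All genes with at least 10 UMIs in a comparison served as background.

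The members and lists were chosen with earlier results of these data known. Named are the 12 members with the most UMIs, the 4 highest and 4 lowest FGF8-over-BSA and S-over-G1 ratios among members with at least 100 UMIs in fibroblast-like cells, and a list of other genes of histone supply. *H2bc24*, *H2ac23*, *H2bc27*, *H1f3*, *H2bc3*, *H2bc22* and the promoter pairs were named after their values were seen. In counts simulated for fibroblast-like cells, FGF8 over BSA (20111 genes, 200 changed), 95.0% of the intervals of changed genes and 96.3% of those of unchanged genes held the true value. These shares are over all genes, and coverage was not taken for the members alone. In the data, 10% of the fibroblast-like cells held 82.4% of member UMIs in BSA and 79.6% in FGF8. Scrublet called 0 doublets and so did not work here. Removing the highest scores (96 BSA and 389 FGF8 cells, from an assumed 0.8% per 1000 barcodes) is an alternative. Stem-loops and gene positions are from GRCm39 with GENCODE vM39, which may differ from the annotation the authors counted on.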

Additional observations from a re-analysis of the deposited data

Results flagged for a closer look

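The summed members differed in direction between cell types under the same contrast of FGF8 over BSA, as log2 ratios of CPM. Fibroblast-like cells had 0.62, while Schwann-like cells had -0.30, smooth muscle or pericyte-like cells -0.090, endothelial-like cells -0.31 and macrophage-like cells -0.13. With 1 library per condition the differences between cell types were not tested.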

How the results depend on the processing

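No paired analysis was possible because each condition has 1 library. For the same reason no library could be left out. Where a value changed with a setting below, the cause was not tested. The members' median log2 ratio in fibroblast-like cells was above 0 under every alternative run, and so was the sum. Beside main values of 7 members above 1, a sum of 0.62, and list medians of 0.59 (S), 1.24 (G2/M), 0.40 (replacement histones), 0.22 (mRNA processing) and 0.42 (chaperones), the following moved. A stricter filter (500 to 6000 genes, mitochondrial share under 10%) gave 13 members, S 0.81, G2/M 1.43 and chaperones 0.32, a ratio of -0.37 in S-called and -0.81 in G2/M-called cells, and turned Schwann-like cells to 0.34 and smooth muscle or pericyte-like cells to 0.29. No integration gave a sum of 0.60 and replacement histones 0.33, and keeping members as clustering features gave 0.60 and 0.33. At resolution 0.2, where only 1 smaller cluster was named fibroblast-like, the members' median was 0.91 against 0.49, with 24 above 1, a sum of 0.85, S 0.36, G2/M 1.14, replacement histones 0.20 and chaperones 0.10. Female-called cells gave a sum of 0.56, S 0.74, G2/M 1.39, replacement histones 0.50, and 0.40, 0.081 and -1.14 in G1-, S- and G2/M-called cells. Male-called cells gave 16 members, a sum of 0.78, S 0.46, G2/M 0.99, replacement histones 0.29, chaperones 0.26, and 1.43 and -0.82 in S- and G2/M-called cells. Thinning to 5000 UMIs gave replacement histones 0.30 and mRNA processing 0.10. Thinning to 2000 gave 11 members, a sum of 0.51, replacement histones 0.30, and turned keratinocyte-like cells to -0.013 and smooth muscle or pericyte-like cells to 0.27. Equal weight per cell gave 12 members, a sum of 0.41, G2/M 1.09 and replacement histones 0.26. Centring on the median gene gave a sum of 0.69 and replacement histones 0.47, and leaving out *H1f5* a sum of 0.52. Phases on unthinned cells gave 0.17 and -0.96 in S- and G2/M-called cells, and at 2000 UMIs 0.32 and -0.89. Phases by list UMI counts left 85 BSA and 49 FGF8 cells as G1-called. They gave member medians of 0.48 and 2.07 in BSA (S and G2/M over G1) and 0.029 and 0.94 in FGF8. The ratios were 0.14, 1.10 and -0.049 in the 3 classes. With no upper gene limit, chosen after seeing the data, 4 members lay above 1, the sum was 0.24, G2/M 0.95, and the 3 classes had 0.21, -0.026 and -1.03.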
